A study of Mus musculus with 9 samples.

Results

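The kinases that act on cap-dependent translation and the initiation factors they work with were examined in E16.5 mouse lenses that lack Mafg and Mafk. The 9 genes are the kinases *Mknk1* and *Mknk2*, the cap-binding genes *Eif4e* and *Eif4e2*, the inhibitor genes *Eif4ebp1* and *Eif4ebp2*, the scaffold genes *Eif4g1* and *Eif4g2* and the helicase gene *Eif4a1*. They were chosen by symbol, because *Mknk2* was higher in double KO than in control lenses, and make up 9 of the 22013 entries of the expression table, of which 15820 carry a gene symbol. Each has a single entry. RNA was sequenced from lenses of such embryos (E, embryonic day) in 3 genotypes, with 3 biological replicates a genotype and 8 lenses in each. The control embryos were *Mafg*+/-:*Mafk*+/- and thus carried 1 inactive allele of each gene, the compound KO embryos were *Mafg*-/-:*Mafk*+/-, and the double KO embryos were *Mafg*-/-:*Mafk*-/-. All 3 groups share the germline null alleles and the ICR background, so no group is wild type. *Mafg* and *Mafk* encode small Maf proteins, bZIP factors without a transactivation domain of their own.

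In cap-dependent translation, eIF4E binds the cap at the 5′ end of an mRNA, eIF4G holds eIF4E together with the helicase eIF4A, and the assembled eIF4F complex recruits the small ribosomal subunit. The 4E-binding proteins compete with eIF4G for eIF4E until mTORC1 phosphorylates them. Mnk1 and Mnk2, the products of *Mknk1* and *Mknk2*, are switched on by ERK and p38 kinases, dock on eIF4G and phosphorylate eIF4E. In the lens, fiber cells make very large amounts of crystallin protein before they lose their organelles. RNA levels, which are what was measured here, say nothing of phosphorylation or of the rate of translation.

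The values are a normalized signal, read here as CPM scaled with a composition factor for each library and called normalized CPM. Read depth is unknown, so errors are the spread between replicates. *Mafg* ranged from 112.9 to 134.5 in control libraries and from 10.1 to 26.2 in the 6 KO libraries, and *Mafk* was between 4.3 and 6.3 where a *Mafk* allele was present and between 0.0 and 0.6 in double KO libraries, as the labels say. Lens fiber marker genes summed to at least 39051.6 in every library. Compound KO replicate 1 stood apart from the rest. Its total was 728036.1 against 977149.4 to 1131183.5 in the other libraries, its fiber markers summed to 39051.6 against at least 77361.2, and its mesenchyme markers summed to 2148.3 against at most 342.7. Of that mesenchyme sum, *Col1a1* gave 1173.6 and *Col3a1* 660.5, while *Pdgfra* was at 72.0 against at least 123.2 in the other libraries. In RNA of whole lenses, fewer cells of a type and less RNA per cell cannot be told apart. The differences of the 9 genes without this library are given beside the values with it.

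In GENCODE M39 on GRCm39, the build to which the reads were aligned, *Mknk2* lies at chr10:80501115-80513946 on the minus strand and has 56 annotated transcripts. A lncRNA gene on the opposite strand, Gm66748, lies within its limits at chr10:80512482-80513388. *Mknk1* lies at chr4:115696372-115736456 on the plus strand with 104 transcripts. *Eif4e2* lies at chr1:87141621-87168210 on the plus strand with 19 transcripts, and no other annotated gene overlaps it. *Eif4e* is at chr3:138231936-138265457, *Eif4ebp1* at chr8:27750350-27805206 and *Eif4g1* at chr16:20487063-20511654, all on the plus strand. *Eif4ebp2* at chr10:61264032-61288567, *Eif4g2* at chr7:110666957-110682244 and *Eif4a1* at chr11:69557762-69563249 are on the minus strand. The table gives symbols and no transcript names, so which transcript a value stands for is unknown.

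The 300 bases before the annotated start of the canonical transcript are shown for *Mknk2* and *Eif4e2*, the genes with the largest differences below, and for *Mknk1*, the paralog of *Mknk2* with nearly even values. They run 5′ to 3′ on the strand of the gene, from chr10:80512130-80512429 for *Mknk2*, chr4:115696073-115696372 for *Mknk1* and chr1:87141361-87141660 for *Eif4e2* in GRCm39. Capitals mark matches to the motifs searched.
Mknk2: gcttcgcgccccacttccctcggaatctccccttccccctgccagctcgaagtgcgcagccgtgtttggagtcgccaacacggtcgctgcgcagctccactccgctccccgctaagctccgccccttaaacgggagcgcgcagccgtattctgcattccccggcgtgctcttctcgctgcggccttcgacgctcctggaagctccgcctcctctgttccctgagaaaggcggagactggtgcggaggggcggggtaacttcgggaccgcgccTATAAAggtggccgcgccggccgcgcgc
Mknk1: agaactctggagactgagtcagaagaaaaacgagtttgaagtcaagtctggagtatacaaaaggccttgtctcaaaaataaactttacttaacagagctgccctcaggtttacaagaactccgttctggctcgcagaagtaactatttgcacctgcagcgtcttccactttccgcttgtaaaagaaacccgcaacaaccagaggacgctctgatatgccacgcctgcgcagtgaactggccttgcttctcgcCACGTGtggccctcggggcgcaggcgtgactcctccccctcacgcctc
Eif4e2: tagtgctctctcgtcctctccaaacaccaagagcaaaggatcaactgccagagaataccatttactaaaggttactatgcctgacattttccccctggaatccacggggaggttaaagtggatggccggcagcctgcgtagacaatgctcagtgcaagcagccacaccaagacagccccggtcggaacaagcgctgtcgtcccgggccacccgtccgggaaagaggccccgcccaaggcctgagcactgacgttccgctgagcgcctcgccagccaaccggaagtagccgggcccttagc

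Both strands were searched for TGACNNNGC and TGANTCAGC, which are forms of the elements that small Maf dimers bind and which overlap where the letters are TGACTCAGC, and for CACGTG, the E-box, and TATAAA. None of the 9 promoters held TGACNNNGC or TGANTCAGC, against 11.2% and 1.07% of the 21580 promoters of the same length before protein-coding genes. CACGTG was found in 3 of the 9, once in *Mknk1* and *Eif4a1* and at 2 positions in *Eif4g1*, against 6.96% of all promoters. TATAAA was found in *Mknk2* alone, from base -28 to base -23 before the start, against 14.1% of all promoters. These matches describe the letters of a 300-base window and are not binding data.

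*Mknk2*, which encodes the Mnk kinase known for high basal activity, was the gene whose values chose the set. Its normalized CPM was 11.5, 13.5 and 14.1 in the control libraries, 95.8, 30.3 and 139.9 in the compound KO libraries and 111.5, 111.6 and 136.0 in the double KO libraries. Every KO library lay above every control library, and the compound KO libraries spanned more than the double KO libraries did, with replicate 2 closest to the controls. The group means were 13.0 ± 1.36, 88.7 ± 55.1 and 119.7 ± 14.1 (SD, n = 3). On the log2(value + 1) scale, double KO lenses exceeded control lenses by 3.10 (SE 0.11), a difference given without a test since it chose the gene.

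Compound KO lenses have lost *Mafg* while keeping a *Mafk* allele, and the comparison with control asks whether *Mknk2* already differs there. It uses the same control libraries as the comparison that chose the gene. Compound KO exceeded control by 2.43 on the log2 scale (SE 0.55, 95% interval 1.05 to 3.80), with an unadjusted p of 0.0052 and an adjusted p of 0.48 in limma. The difference therefore did not pass the test over all 14348 genes, although it was higher in 3 of 3 compound KO libraries. Without compound KO replicate 1 it was 2.25 (adjusted p = 0.36), and without compound KO replicate 2 it was 3.06 (adjusted p = 0.069). Over all 15 alternatives of processing the adjusted p stayed between 0.069 and 0.762.

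Loss of the remaining *Mafk* allele is what separates double KO from compound KO lenses. *Mknk2* differed between them by 0.67 (SE 0.55, 95% interval -0.69 to 2.04, adjusted p = 0.67 in limma), and the groups overlapped. The double KO libraries are those whose high *Mknk2* values chose the gene, so this difference is not independent of that choice. The interval includes no difference as well as a 4.12-fold one, so these libraries do not settle whether *Mknk2* differs between the KO genotypes. Without compound KO replicate 1 it was 0.86, and over the replicates left out it ran from 0.04 without compound KO replicate 2 to 1.13 without compound KO replicate 3.

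Marker genes of other cell types also moved with genotype. In compound KO libraries 9 of 10 lens fiber markers were below all controls. Of 8 mesenchyme markers 6 were above all controls and 1, *Pdgfra*, was below, and 4 of 6 neural retina markers were above. Lens epithelium markers were mixed, with 2 of 5 above and 3 below all controls. Over all genes 12.2% were above and 11.7% below control without overlap in compound KO libraries. The neural retina sum was 23.3 to 77.9 in control, 91.5 to 436.7 in compound KO and 34.5 to 113.2 in double KO libraries. In double KO libraries 3 of 10 fiber markers were below all controls, and 1 of 8 mesenchyme and 0 of 6 neural retina markers were above. Of the lens epithelium markers 2 of 5 were below all controls and 0 above. Over all genes 7.78% were above and 8.04% below control without overlap in double KO libraries. All 6 skeletal muscle markers were higher in each double KO library than in each control library, and 5 of 6 were so in compound KO libraries. Their sum ranged from 1.8 to 3.8 in control, from 16.9 to 266.1 in compound KO and from 21.5 to 62.9 in double KO libraries, and *Myod1* and *Ckm* were each at 0.0 in a control library. The muscle sum and *Mknk2* were each higher in every KO library than in every control library. In compound KO replicates 1 to 3 the muscle sum was 266.1, 27.3 and 16.9, and *Mknk2* was at 95.8, 30.3 and 139.9. In double KO replicates 1 to 3 the sum was 62.9, 21.9 and 21.5, and *Mknk2* was at 111.5, 111.6 and 136.0. *Myod1*, from the same list, was at 2.6, 6.2 and 7.8 in compound KO and 9.2, 8.3 and 6.2 in double KO libraries. Erythroid markers summed to between 919.0 and 1241.8 in control, 1112.6 and 2136.0 in compound KO and 1803.7 and 2731.6 in double KO libraries, with 5 of 6 genes separating double KO from control. The part of such cells in the *Mknk2* values was not tested.

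*Mknk1*, the paralog that responds more strongly to ERK and p38, had low and even values. It was at 5.7, 4.6 and 5.6 in control, 6.8, 5.7 and 4.8 in compound KO and 4.8, 4.6 and 5.7 in double KO libraries. All groups overlapped. The compound KO minus control difference was 0.10 (SE 0.17, 95% interval -0.33 to 0.52), and double KO minus compound KO was -0.16 (SE 0.17, 95% interval -0.58 to 0.27). They were -0.011 and -0.05 without compound KO replicate 1. The double KO minus control difference was -0.06 (SE 0.13).

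**Figure D1:**
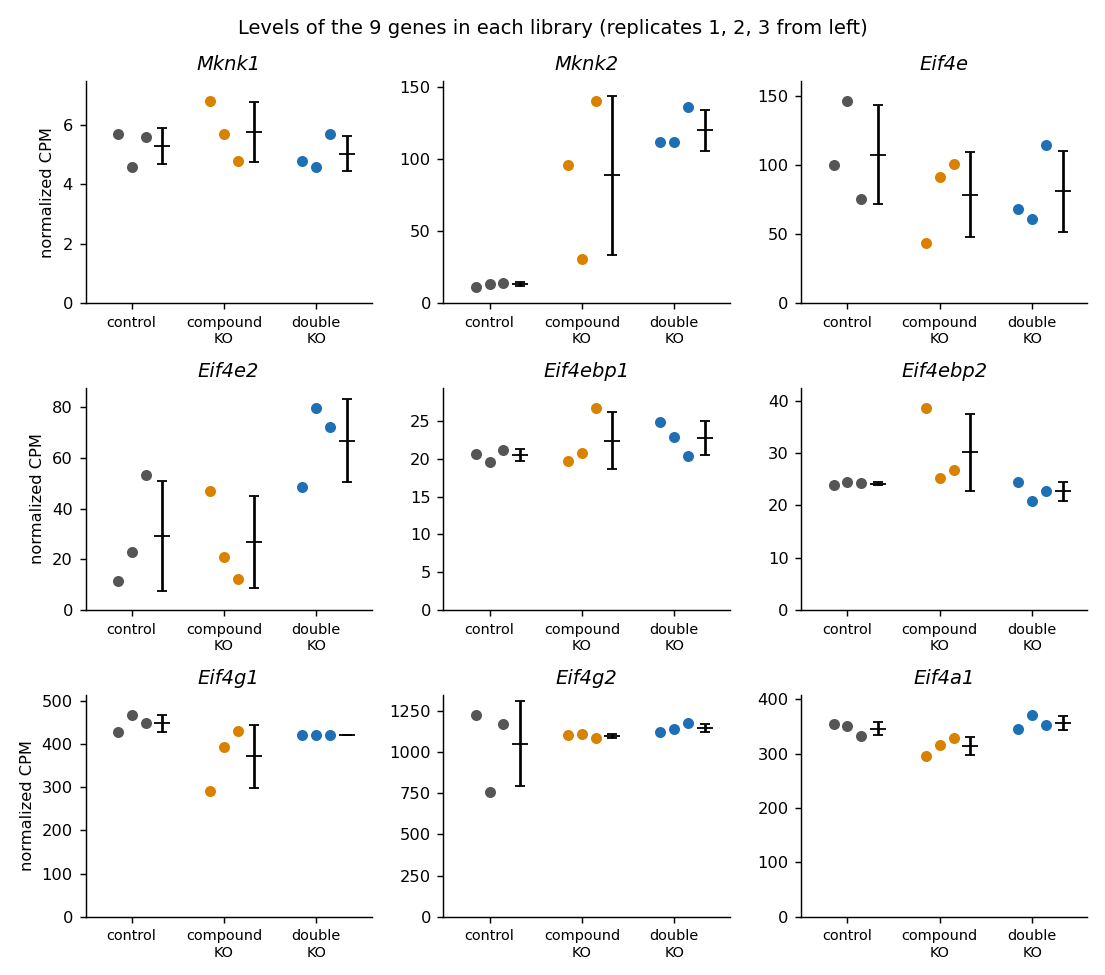
Normalized CPM (y axis, linear from 0) of the 9 genes in control, compound KO and double KO libraries. Points are libraries, replicates 1 to 3 from left within a genotype, and the bar to the right of each group is the mean ± SD (n = 3). *Mknk2* lies between 11.5 and 14.1 in control and between 30.3 and 139.9 in KO libraries, whereas *Mknk1* stays between 4.6 and 6.8.

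*Eif4e*, the cap-binding subunit and the substrate of both kinases, varied within each genotype. It was at 100.1, 146.2 and 75.7 in control, 43.2, 91.6 and 100.7 in compound KO and 68.1, 60.6 and 114.7 in double KO libraries. The groups overlapped in all 3 comparisons. Its means were 107.3 ± 35.8, 78.5 ± 30.9 and 81.1 ± 29.3 (SD, n = 3). The compound KO minus control difference was -0.49 (SE 0.40, 95% interval -1.47 to 0.50), and double KO minus compound KO was 0.08 (SE 0.40, 95% interval -0.91 to 1.07). Both rest in part on compound KO replicate 1, without which the first was -0.11 (SE 0.29) and the second turned to -0.30 (SE 0.30). The difference from control ran from -0.71 to -0.11 over the replicates left out.

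*Eif4e2* encodes 4EHP, a cap-binding protein that does not bind eIF4G and that is known to repress translation of bound mRNAs. It was at 11.6, 22.8 and 53.4 in control, 47.1, 20.8 and 12.2 in compound KO and 48.4, 79.7 and 72.3 in double KO libraries. Each double KO library exceeded each compound KO library, the lowest by only 48.4 against 47.1, while control replicate 3 overlapped the double KO group. Double KO exceeded compound KO by 1.47 (SE 0.49, 95% interval 0.25 to 2.69), with an unadjusted p of 0.026 and an adjusted p of 0.66 in limma, so it did not pass the test over all genes. The unadjusted p was at most 0.05 in 9 of 15 alternatives, and it was 0.072 when libraries were scaled by their size alone. Without compound KO replicate 1 the difference was 1.97 (adjusted p = 0.48), and without compound KO replicate 3 it was 1.04 (adjusted p = 0.47). Compound KO minus control was -0.08 (SE 0.69, 95% interval -1.78 to 1.63), and -0.58 without compound KO replicate 1. Double KO minus control was 1.39 (SE 0.55).

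The inhibitor genes differed little. *Eif4ebp1*, which encodes 4E-BP1, was at 20.6, 19.6 and 21.2 in control, 19.7, 20.8 and 26.7 in compound KO and 24.9, 22.9 and 20.4 in double KO libraries. The groups overlapped, with differences of 0.11 (SE 0.14) for compound KO minus control and 0.03 (SE 0.15) for double KO minus compound KO, which were 0.20 and -0.055 without compound KO replicate 1. *Eif4ebp2*, which encodes 4E-BP2, was at 23.8, 24.5 and 24.2 in control, 38.6, 25.2 and 26.7 in compound KO and 24.5, 20.8 and 22.8 in double KO libraries. The compound KO libraries lay above all others, the highest being replicate 1. The difference was 0.28 (SE 0.17, 95% interval -0.14 to 0.71) against control and -0.37 (SE 0.18, 95% interval -0.82 to 0.08) for double KO minus compound KO. Neither passed the test, and leaving out compound KO replicate 1 brought them to 0.10 and -0.19.

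*Eif4g1*, the main scaffold of eIF4F on which the Mnk kinases dock, was at 427.9, 467.6 and 448.0 in control, 290.5, 393.9 and 431.2 in compound KO and 421.0, 420.3 and 420.1 in double KO libraries. The low value was that of compound KO replicate 1, and each double KO library was below each control library by a small margin. Double KO minus control was -0.09 (SE 0.05). Compound KO minus control was -0.29 (SE 0.16, 95% interval -0.69 to 0.11), and -0.12 without compound KO replicate 1. Double KO minus compound KO was 0.20 (SE 0.16), and 0.03 without that library.

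*Eif4g2* encodes DAP5, a scaffold relative that lacks the eIF4E-binding site. It was at 1227.3, 756.0 and 1173.6 in control, 1105.0, 1108.4 and 1084.4 in compound KO and 1124.0, 1142.2 and 1175.4 in double KO libraries. Control replicate 2 stood apart and the other 8 libraries lay within 1084.4 and 1227.3. Compound KO minus control was 0.10 (SE 0.21) and turned to -0.13 without control replicate 2, with 0.09 without compound KO replicate 1. Double KO minus compound KO was 0.06 (SE 0.10, 95% interval -0.17 to 0.30), or 0.07 without compound KO replicate 1, and these groups did not overlap.

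*Eif4a1*, the RNA helicase of eIF4F, was at 354.6, 351.7 and 332.9 in control, 295.9, 316.4 and 328.4 in compound KO and 345.3, 371.6 and 352.4 in double KO libraries. The compound KO libraries were the lowest 3 of the 9. Compound KO minus control was -0.14 (SE 0.08, 95% interval -0.34 to 0.05), and double KO minus compound KO was 0.18 (SE 0.08, 95% interval -0.02 to 0.39). These were -0.10 and 0.14 without compound KO replicate 1. Scaling by library size alone changed the first to 0.11 and the second to -0.0016, so the direction depends on the scaling. That scaling moved the median of all genes to 0.24 and -0.17 in these comparisons.

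**Figure D2:**
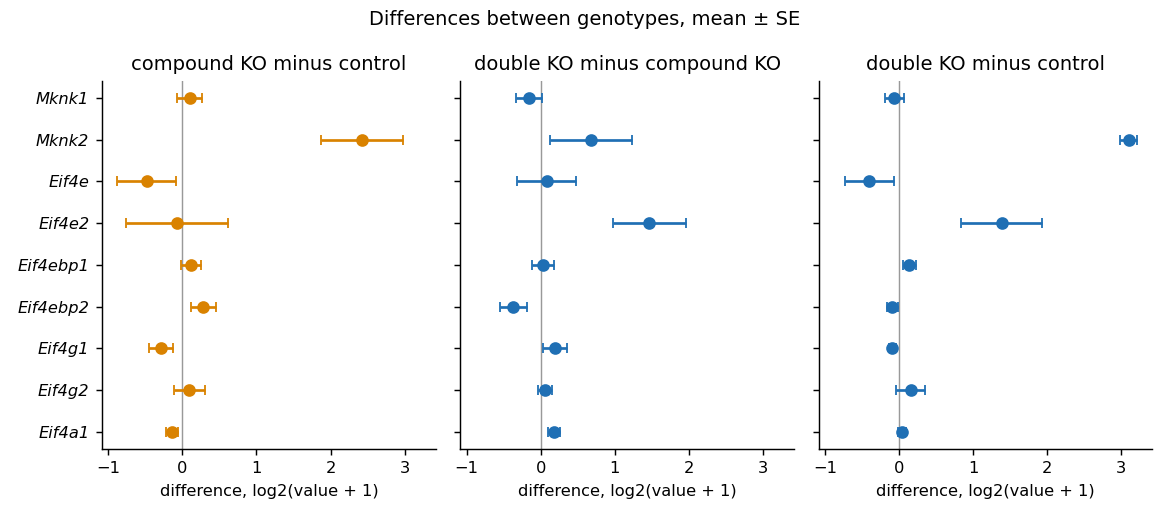
Differences between genotypes on the log2(value + 1) scale (x axis) for the 9 genes, as estimate ± SE from limma, in the 3 comparisons. *Mknk2* is at 2.43, 0.67 and 3.10 from left to right, *Eif4e2* at -0.08, 1.47 and 1.39, and the other 7 genes lie between -0.49 and 0.28.

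All 9 genes passed the filter on low values in each comparison. Calls required a Benjamini-Hochberg adjusted p no higher than 0.05 together with a 1.5-fold difference. Between compound KO and control, limma called 0 of the 9 genes and 0% of 14348 genes, and at an unadjusted p of at most 0.05 with the same fold it listed 1 of the 9, *Mknk2*, and 5.34% of all. Groups did not overlap for 3 of the 9, *Mknk2*, *Eif4ebp2* and *Eif4a1*, and for 23.9% of all genes. Between double KO and compound KO, 0 of the 9 and 0.0139% of 14402 genes were called, 1 of the 9, *Eif4e2*, and 3.06% of all passed the unadjusted threshold, and 4 of the 9, of which 3 were higher and 1 lower in double KO, and 15.6% of all did not overlap. With scaling by library size alone that count was 1 of the 9, which was lower, against 12.9% of all genes. Double KO against control, which chose the set, is given for description only. There 0.361% of 14122 genes were called, 2.83% were past the unadjusted threshold, and the groups of 15.8% did not overlap. *Mknk2*, by the choice of the set, and *Eif4g1* were among those without overlap. Calls of the 9 genes are not given there, since this comparison chose them. The median difference over the 9 genes was 0.10, 0.08 and 0.04 in the order above, against 0.02, -0.01 and 0.01 over all genes.

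The wider pathway was described with 7 lists of 94 genes in all, of which 88, 89 and 87 could be tested in compound KO against control, double KO against compound KO and double KO against control. The lists were made up of upstream ERK and p38 kinases, the mTORC1 arm, other cap-binding proteins and regulators, other helicase, scaffold and poly(A) partners, factors of scanning and subunit joining, other Mnk substrates, and mRNAs known to be sensitive to eIF4E. In the main fits limma called none of these genes in any comparison, and the smallest adjusted p was 0.215. At the unadjusted threshold, 1 gene was lower between compound KO and control, 2 were higher between double KO and compound KO, and 1 was higher and 1 lower between double KO and control. These counts are 1.14%, 2.25% and 2.30% of the genes tested, below the shares of 5.34%, 3.06% and 2.83% over all genes.

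*Map2k3*, a kinase upstream of p38, was at 32.8, 44.5 and 33.9 in control, 26.8, 52.0 and 58.3 in compound KO and 63.4, 60.0 and 52.5 in double KO libraries. Every double KO library lay above every control library, by 0.66 (SE 0.14, unadjusted p = 0.0037, adjusted p = 0.23 in limma). Without compound KO replicate 1, compound KO minus control was 0.57 (unadjusted p = 0.017, adjusted p = 0.35 in limma) and double KO minus compound KO was 0.08. *Tsc2*, which restrains mTORC1, was at 9.9, 6.8 and 0.5 in control, 0.4, 4.5 and 0.3 in compound KO and 16.0, 9.2 and 9.8 in double KO libraries. Double KO exceeded compound KO by 2.52 (SE 0.61, unadjusted p = 0.0068, adjusted p = 0.66 in limma), while control libraries ranged from 0.5 to 9.9. Without compound KO replicate 1 the difference was 2.20. *Rps6kb2*, an S6 kinase gene of the mTORC1 arm, was at 17.4, 17.9 and 8.0, at 8.8, 7.5 and 10.6 and at 17.3, 12.9 and 12 in the same order. Its double KO minus compound KO difference was 0.59 (SE 0.19, adjusted p = 0.66 in limma), and 0.59 without compound KO replicate 1 as well. *Ndrg1*, from the list of eIF4E-sensitive mRNAs, was at 29.4, 38.6 and 27.1 in control, 16.3, 7.6 and 22.7 in compound KO and 20.8, 22.9 and 9.8 in double KO libraries. All KO libraries lay below all controls, with differences of -1.09 (SE 0.39, adjusted p = 0.48) and -0.86 (SE 0.33, adjusted p = 0.48) from control in limma. The first was -1.18 without compound KO replicate 1.

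The paralogs of the 9 genes were also read. *Eif4e3*, which encodes a further cap-binding protein, stayed between 10.5 and 15.5 in all libraries. *Eif4a2*, the close paralog of *Eif4a1*, stayed between 42.7 and 50.1. *Eif4g3*, a scaffold paralog, was at 39.1 and 31.1 in control replicate 1 and compound KO replicate 1 and between 120.8 and 154.0 in the other 7 libraries. *Pdcd4*, an inhibitor of eIF4A, was at 101.2, 93.4 and 93.9 in control, 59.7, 81.6 and 82.8 in compound KO and 77.9, 92.7 and 80.2 in double KO libraries. Both KO groups lay below control for *Pdcd4*, with differences of -0.37 (SE 0.14, adjusted p = 0.48) and -0.20 (SE 0.08, adjusted p = 0.49) in limma, which did not pass the test. The first was -0.22 without compound KO replicate 1. *Eif4ebp3* has no entry with that symbol and could not be read.

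The factors of scanning, ternary complex and subunit joining leaned one way in the compound KO lenses without a call, and so did other lists. Over all 7 lists 65 of 88 genes were below 0 against control, with a median of -0.11 against 0.02 over all genes. With scaling by library size alone 24 of 88 were below 0, and their median was 0.14 against 0.24 over all genes. Without that scaling, the helicase, scaffold and poly(A) partners had 10 of 10 below 0 and a median of -0.12. The mTORC1 arm had 11 of 16 and a median of -0.17, and the other Mnk substrates had 2 of 4. Of the 29 factors of scanning and joining, 24 had a difference below 0 against control, as did 48.0% of all genes. Their median was -0.17 against 0.02 over all genes, and 11 were below control without overlap against 1 above. Over all genes 11.7% were below and 12.2% above without overlap. Most fiber markers were lower and most mesenchyme and neural retina markers higher in the same libraries, as given above. Their part in these values was not tested. Without compound KO replicate 1 the count below 0 was also 24 of 29, and the median was -0.07. In that setting 12 were below and 3 above control without overlap. *Eif5b* was higher there by 0.95 (unadjusted p = 0.00014, adjusted p = 0.076 in limma). It was at 41.0 in the replicate left out and at 172.6 and 150.5 in the other compound KO libraries, against 79.4 to 87.3 in control. With scaling by library size alone, 8 of 29 were below 0, 2 were below and 5 above control without overlap, and the median was 0.09, under the all-gene median of 0.24. In double KO against control, 18 of 29 were below 0, with a median of -0.03. Double KO minus compound KO, which shares the compound KO libraries, had a median of 0.14 over these genes. That median was 0.06 without compound KO replicate 1, and it turned to -0.04 with library size scaling, where 19 of 29 were below 0 and the all-gene median was -0.17.

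**Figure D3:**
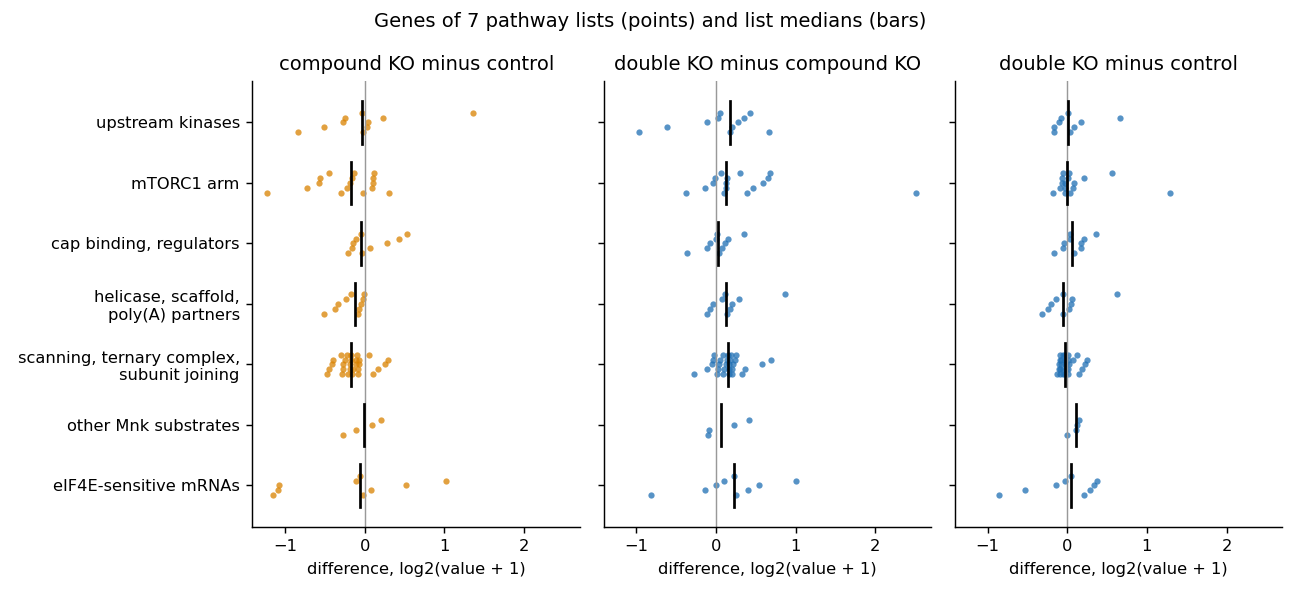
Differences on the log2(value + 1) scale (x axis) for the genes of the 7 pathway lists (rows), in the 3 comparisons. Points are genes and black bars are list medians. The list medians lie between -0.17 and -0.01 for compound KO minus control, 0.02 and 0.22 for double KO minus compound KO, and -0.05 and 0.11 for double KO minus control.

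The genes most like *Mknk2* over the 9 libraries were sought among genes with a mean of at least 10, by Pearson's r of log2(value + 1). The libraries fall into 3 genotypes, so any gene that follows genotype scores high, and r is a description. *Radil*, which encodes a Rap GTPase effector, was most alike (r = 0.97), with 1.6, 1.5 and 1.8 in control, 10.8, 6.3 and 31.2 in compound KO and 34.5, 31.0 and 43.6 in double KO libraries. As with *Mknk2*, compound KO replicate 2 was the lowest KO library and compound KO replicate 3 the highest of its group. The next were *Atp5sl* (r = 0.93), *Pola1*, the catalytic subunit of DNA polymerase alpha (r = 0.93), *Zc3h7a* (r = 0.92) and *Klf6*, a zinc-finger transcription factor (r = 0.92). *Atp5sl* varied only from 10.2 to 12.6 and *Pola1* from 21.0 to 43.8. The least alike were *St18* (r = -0.95), with 12.2 to 13.3 in control and 10.3 to 10.8 in double KO libraries, and *G6pdx* (r = -0.92), the first enzyme of the pentose phosphate pathway, with 37.8 to 38.6 and 34.2 to 35.4. Among the other 8 initiation genes, r with *Mknk2* ran from -0.39 for *Eif4e* to 0.54 for *Eif4ebp1*.

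**Figure D4:**
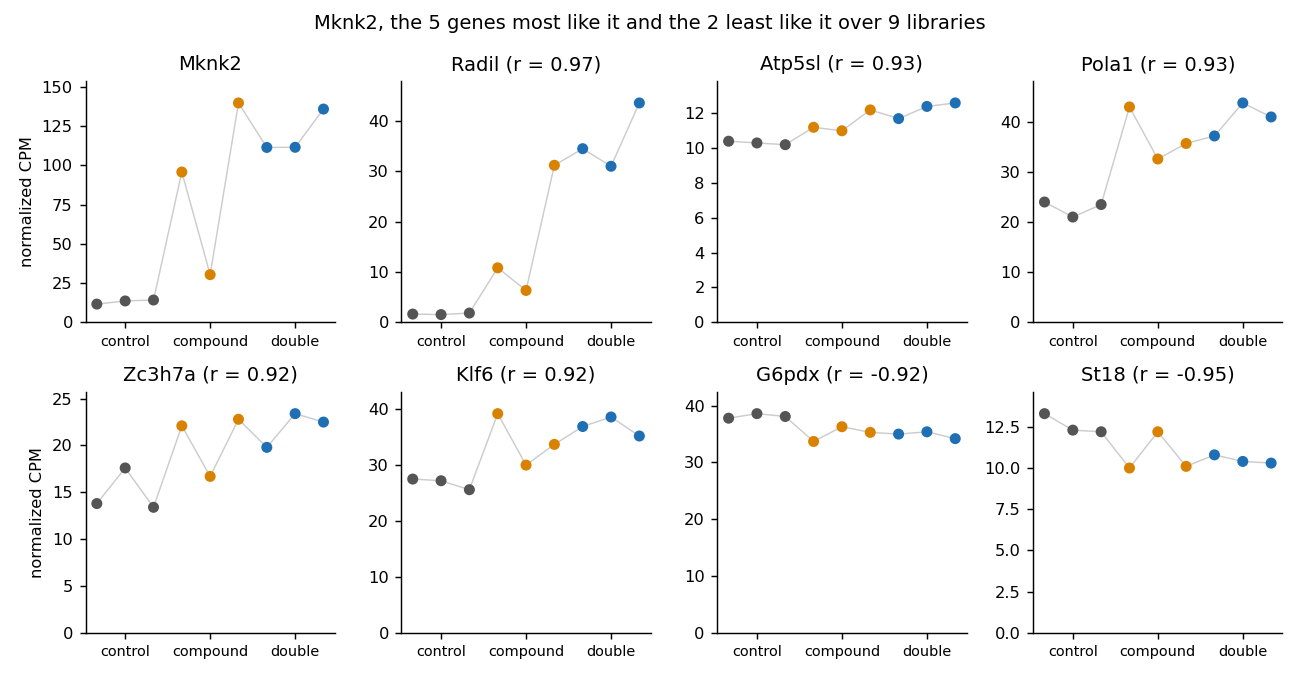
Normalized CPM (y axes, linear from 0) of *Mknk2*, the 5 genes most like it and the 2 least like it in the 9 libraries, in the order control, compound KO and double KO with replicates 1 to 3 from left. Values of *Radil* run from 1.5 to 43.6 in the same order of libraries as *Mknk2* in the compound KO group.

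The table was made from transcript-level counts, and 6193 of its entries carry no symbol. For each of the 9 genes, these were searched for the entry that left the smallest SD over the 9 libraries when added to the gene. The entry found runs against the gene because the search asked for that, and what it is is unknown. For *Eif4e2* the entry was at 64.6, 57.5 and 26.4 in control, 15, 53.3 and 57.8 in compound KO and 33.1, 5.7 and 10.1 in double KO libraries. The sum stayed between 62.1 and 85.4, and the SD fell from 25.4 to 7.23, against 13.9 for the next entry and 14.4 for the best gene of another symbol, *Mtmr4*. For *Eif4g2* the entry was at 376.0 in control replicate 2 and between 7.1 and 32.4 elsewhere, which brought the SD from 136.2 to 44.7, against 55.8 for the next entry. For *Mknk1*, *Eif4ebp1*, *Eif4ebp2* and *Eif4g1*, a gene of another symbol left a smaller SD than any entry without a symbol. The entry left the smaller SD for *Eif4e*, at 16.8 against 17.3, and for *Eif4a1*, at 7.85 against 9.58.

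For *Mknk2* the entry found was at 166.8, 185.4 and 178.2 in control, 12, 124.5 and 21.6 in compound KO and 33.2, 19.9 and 20.6 in double KO libraries. Its one high KO library was compound KO replicate 2, where *Mknk2* was lowest among KO libraries. The sum was 178.3, 198.9 and 192.3 in control, 107.8, 154.8 and 161.5 in compound KO and 144.7, 131.5 and 156.6 in double KO libraries, so that the controls were the higher group. The SD fell from 55.4 to 28.9 with this entry, to 32.4 with the next entry and to 29.9 with *Myo7b*, a different gene. Pearson's r of log2(value + 1) between the entry and *Mknk2* was -0.95, a pattern that the search favours. Genes of another symbol were drawn from 15820 entries and entries without a symbol from 6193. The pools are unequal and each SD is the smallest of a search, so these values do not decide what the entry is. Whether any of these entries is a transcript of the gene it was added to was not tested.

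**Figure D5:**
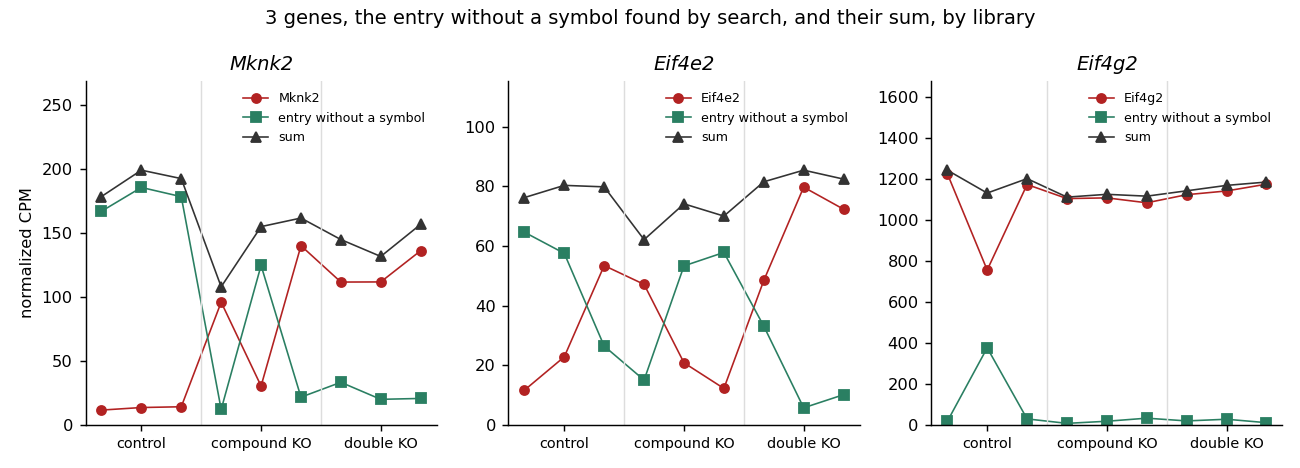
Normalized CPM (y axes, linear from 0) of *Mknk2*, *Eif4e2* and *Eif4g2* (circles), of the entry without a symbol found by the search for each (squares) and of their sum (triangles), in the 9 libraries with replicates 1 to 3 from left in each genotype. The sums lie between 107.8 and 198.9, 62.1 and 85.4, and 1112.1 and 1243.8.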

How the data were processed

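RNA of E16.5 lenses was measured in 9 libraries, grouped by genotype as labelled. The authors sequenced strand-specific paired-end libraries, used HISAT2 for alignment to mm39 and StringTie for counts of transcripts, and took the counts into edgeR. Per the labels, Trimmomatic and Cufflinks were also used. Versions are not given in the sources used here. What the authors deposited is a normalized signal with 1 decimal. Library totals differ and have a geometric mean of 1000012, from which the values were read as CPM multiplied by 1 composition factor for each library. No counting error can be given without the depth.

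Each pair of genotypes was compared with limma 3.58.1 in R 4.3.3 on log2(value + 1) with an intensity trend, over entries with a symbol that reached 1 in 2 or more of the 6 libraries. Two-sided p-values were adjusted by Benjamini-Hochberg over all genes tested, and limma was tested on simulated data. A count model had been planned for read counts and was not used, since the values are normalized. The 22 entries that show a date in place of a symbol were kept as they are.

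The 9 genes, the pathway lists and the marker lists were chosen with earlier results of these data known. Named genes are the 9, the pathway genes past the unadjusted threshold, *Eif4e3*, *Eif4g3*, *Eif4a2*, *Eif4ebp3* and *Pdcd4*, the 5 genes most and 2 least like *Mknk2* with a mean of at least 10, and *Mafg* and *Mafk*. *Eif5b* was named as well, for its difference without compound KO replicate 1. The search of entries without a symbol, with *Mtmr4* and *Myo7b*, and the motifs were added after the values were seen. Promoters were read from GRCm39 with GENCODE M39. Alternatives were upper quartile scaling, library size scaling, no or a stricter filter, one fit of all libraries, a replicate block, a pseudocount of 0.1, no intensity trend, summed entries, no fold threshold, and each replicate left out. Python 3.11.15, numpy 2.4.6, pandas 2.3.3 and matplotlib 3.10.9 were used.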

Additional observations from a re-analysis of the deposited data

How the results depend on the processing

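In 15 alternatives per comparison, *Mknk2* kept its direction in all 3 comparisons and was not called between compound KO and control or between double KO and compound KO. Leaving out 1 replicate gave 1.98 to 3.06, 0.04 to 1.13 and 3.01 to 3.16 for compound KO minus control, double KO minus compound KO and double KO minus control. None of the other 8 genes was called in the tested comparisons, and several small differences changed sign. Scaling by library size alone turned *Eif4e* to -0.10, *Eif4ebp1* to -0.15, *Eif4g2* to -0.13 and *Eif4a1* to -0.0016 between double KO and compound KO, and *Eif4e2* to 0.17 and *Eif4a1* to 0.11 between compound KO and control. Leaving out 1 replicate turned the sign of *Mknk1* (-0.011 to 0.20), *Eif4e2* (-0.58 to 0.47), *Eif4ebp1* (-0.014 to 0.20) and *Eif4g2* (-0.13 to 0.22) between compound KO and control, and of *Eif4e* (-0.30 to 0.30) and *Eif4ebp1* (-0.055 to 0.16) between double KO and compound KO.

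Counts of genes were less stable. One fit of all 9 libraries called 2, 5 and 19 genes in the 3 comparisons, against 0, 2 and 51, and the unadjusted counts were 766, 440 and 400. Leaving out 1 replicate gave 0 to 13, 1 to 6 and 22 to 47 genes called, with 13 and 6 without compound KO replicate 1. For double KO minus control the counts that moved most were 33 without control replicate 1, 22 without control replicate 3 and 27 without double KO replicate 1. The counts at the unadjusted threshold ran from 382 to 1620 and from 253 to 1142 between compound KO and control and between double KO and compound KO, the extremes being without control replicate 2 and compound KO replicate 3 and without double KO replicate 2 and compound KO replicate 3. Without control replicate 3 the first count was 440. Between double KO and compound KO, 0 genes were called with a value of at least 1 required in every library and 1 with a pseudocount of 0.1. The cause was not tested. The counts of pathway genes at the unadjusted threshold stayed between 0 and 5.

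Same-numbered libraries correlated by -0.106 to 0.216 after removal of group means. Libraries of different numbers were not correlated for comparison, so whether the numbers pair the libraries stays unknown. With the replicate block, *Mknk2* was at 2.43 (adjusted p = 0.47), 0.67 (adjusted p = 0.62) and 3.10, 0, 0 and 10 genes were called by limma, and 744 genes passed the unadjusted threshold between double KO and compound KO.

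Depth is unknown, and 3 libraries a group limit the precision.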
